A study of Mus musculus with 4 samples.

Results

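The 10 genes described here are protein-coding genes of the mouse mitochondrial genome that encode subunits of the respiratory chain and the ATP synthase: mt-Nd1, mt-Nd2, mt-Nd4, mt-Nd5, mt-Nd6, mt-Cytb, mt-Co1, mt-Co2, mt-Co3 and mt-Atp6. They were chosen by symbol, and all 10 were listed in each of the 4 gene tables, which held 24020 to 26177 genes. They are 10 of the 13 protein-coding genes of that genome and 10 of 21345 genes listed in all libraries. Their transcripts were counted as unique molecular identifiers (UMIs), 1 per captured RNA molecule, in single-cell libraries of mouse lung. The libraries were HSK (HySu, FUNDC1 knockout), HSW (HySu, wild type), NK (normoxia, FUNDC1 knockout) and NW (normoxia, wild type). HySu mice were kept in hypoxia and given 3 weekly doses of SU5416, a VEGF receptor inhibitor, whereas the mice of NK and NW received vehicle and stayed in normoxia. All mice were 11 weeks old, and cells of 5 mice were pooled into the 1 library of each group. The strain, the promoter behind the deletion and the cell types that carry it are not stated in the labels. With 1 library per group no test between groups was possible, so ratios are given with 95% intervals that cover counting error only, and differences between mice, pools and libraries are not in them.

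The mitochondrial genome is a small circle that codes for a few core subunits of complexes I, III, IV and V, whereas complex II and all other subunits come from nuclear genes. Its heavy and light strands are each read into long precursor RNAs, which are cut at the tRNAs into single messages that differ in stability. FUNDC1 is a receptor of the outer mitochondrial membrane through which damaged mitochondria, in hypoxia above all, are handed to autophagy. In the lung, endothelial cells lean on glycolysis, while alveolar type 2 (AT2) cells, which make surfactant, are rich in mitochondria.

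The libraries held 4128 cells in HSK, 5041 in HSW, 9164 in NK and 7649 in NW, with 41308071, 45589625, 63501686 and 62747087 UMIs in the same order. Pairs of libraries shared 20 to 70 cell barcodes, at most 1.02% of the smaller library. Fundc1, the targeted gene, had 10 UMIs in HSK against 1774 in HSW, and 57 in NK against 2664 in NW. Scaled by the total, this was 0.622% of the wild type level under HySu and 2.11% in normoxia. Over the 13 cell classes named below, Fundc1 had 0 to 5 UMIs per class in HSK, 14 to 577 in HSW, 0 to 15 in NK and 6 to 736 in NW. In alveolar macrophage-like cells it had 15 in NK against 736 in NW. In vascular endothelial-like cells it had 0 UMIs in HSK, 75 in HSW, 1 in NK and 6 in NW. After removal of cells with markers of more than one lineage, 3670 cells of HSK, 4059 of HSW, 6356 of NK and 5811 of NW were kept. Clusters were named "X-like" from marker genes, and 13 classes had at least 30 cells in every library. The vascular endothelial-like class was small, with 118 cells in HSK, 236 in HSW, 109 in NK and 39 in NW. Unnamed clusters held 4.47% of the kept cells in HSK, 3.33% in HSW, 8.17% in NK and 5.01% in NW. Cells were deeper under HySu: the median UMIs per cell were higher in HSK than in NK in 13 of 13 classes and in HSW than in NW in 12 of 13.

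Of the 10 genes, 7 were measurable and 3 were almost absent from the counts. In the kept cells of all 4 libraries together, mt-Cytb had 476376 UMIs, mt-Nd1 422799, mt-Nd4 319325, mt-Nd2 314232, mt-Co1 288223, mt-Nd5 158230 and mt-Nd6 3608. By contrast mt-Atp6, part of the proton channel of the ATP synthase, had 93 UMIs. Its neighbours mt-Co2, which takes electrons from cytochrome c, and mt-Co3, the remaining core subunit of cytochrome c oxidase, had 41 and 18. In the annotation (GENCODE, GRCm38, chromosome M) all 10 are single-exon genes. The complex I genes lie at chrM:2751-3707 (mt-Nd1), chrM:3914-4951 (mt-Nd2), chrM:10167-11544 (mt-Nd4), chrM:11742-13565 (mt-Nd5) and chrM:13552-14070 (mt-Nd6). Cytochrome b, the one mitochondrially encoded subunit of complex III, lies at chrM:14145-15288. The complex IV genes lie at chrM:5328-6872 (mt-Co1), chrM:7013-7696 (mt-Co2) and chrM:8607-9390 (mt-Co3), and mt-Atp6 of complex V at chrM:7927-8607. All are on the plus strand except mt-Nd6, which is on the minus strand.

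The 3 nearly absent genes share their sequence with annotated pseudogenes on chromosome 1. BLAST of each gene against all GENCODE transcripts found 681 of 684 bases of mt-Co2 in Gm28661, 678 of 681 bases of mt-Atp6 in Gm10925 and 783 of 784 bases of mt-Co3 in Gm28437, each at 100% identity. In windows of 100 bases, 99.5% of mt-Co2, 99.5% of mt-Atp6 and 99.9% of mt-Co3 could not be told from such a copy. The copies themselves had few UMIs, 271 for Gm28661, 121 for Gm10925 and 183 for Gm28437, so the copies did not hold counts of the size seen for the other members. The last 90 bases of the shared stretch of mt-Co2 (chrM:7604-7693, plus strand) and of its copy (chr1:24614885-24614974, minus strand) are shown for comparison: capitals would mark a differing base, and there is none.
mt-Co2: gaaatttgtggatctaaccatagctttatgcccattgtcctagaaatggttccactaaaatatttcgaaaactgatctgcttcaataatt
Gm28661: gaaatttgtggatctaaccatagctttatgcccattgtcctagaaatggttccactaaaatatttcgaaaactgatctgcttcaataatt
The well-counted mt-Cytb differs. Its nearest copy, Gm11410 on chromosome 4, matched 92.9% of 1142 bases, and no window of 100 bases was shared. In the same kind of stretch (chrM:15198-15287, plus strand, against chr4:80005042-80005131, plus strand) 6 bases, in capitals, set the gene apart from the copy.
mt-Cytb: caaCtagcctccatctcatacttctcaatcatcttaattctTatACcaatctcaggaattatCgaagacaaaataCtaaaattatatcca
Gm11410: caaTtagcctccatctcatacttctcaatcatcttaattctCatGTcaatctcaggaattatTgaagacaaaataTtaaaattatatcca

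The genes with a partial copy were counted. The first 876 of the 1378 bases of mt-Nd4 were identical to Gm28439, while its last 300 bases, nearest the poly(A) tail from which these libraries are primed, held no shared window. The stretch where the copy ends (chrM:11013-11072, plus strand) is shown with the bases beyond it in capitals.
mt-Nd4: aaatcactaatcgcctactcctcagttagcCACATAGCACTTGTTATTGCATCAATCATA
For mt-Co1, the catalytic subunit of cytochrome c oxidase, the reverse held: 100% of the windows in its last 300 bases were shared with a copy. Over its whole length 30.8% of its windows were shared, and it had 288223 UMIs. Among mitochondrial genes outside the list, mt-Nd4l and mt-Nd3 also had near-identical copies and few UMIs, 9 and 18. mt-Atp8, with no annotated copy found, had 7, but only annotated transcripts were searched. On the circle mt-Atp8 (chrM:7766-7969) starts between mt-Co2 and mt-Atp6. Their copies on chromosome 1 are Gm28661, which starts at chr1:24614885, and Gm10925, which ends at chr1:24614651. The stretch between these 2 copies was not searched. The copy of mt-Nd3, Gm28438, was the exception among the copies, with 24964 UMIs. It differs from mt-Nd3 by 1 base over the aligned length, the third, shown in capitals at the start of both (chrM:9459-9519, plus strand, and chr1:24613059-24613119, minus strand).
mt-Nd3: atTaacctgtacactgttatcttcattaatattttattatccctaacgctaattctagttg
Gm28438: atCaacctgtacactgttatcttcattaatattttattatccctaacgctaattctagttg
How the authors' aligner and counter treated reads that map to several places is not given in the sources used here, and its part in these counts was not tested. The sum over the 10 members below is therefore in practice the sum over 7.

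**Figure D1:**
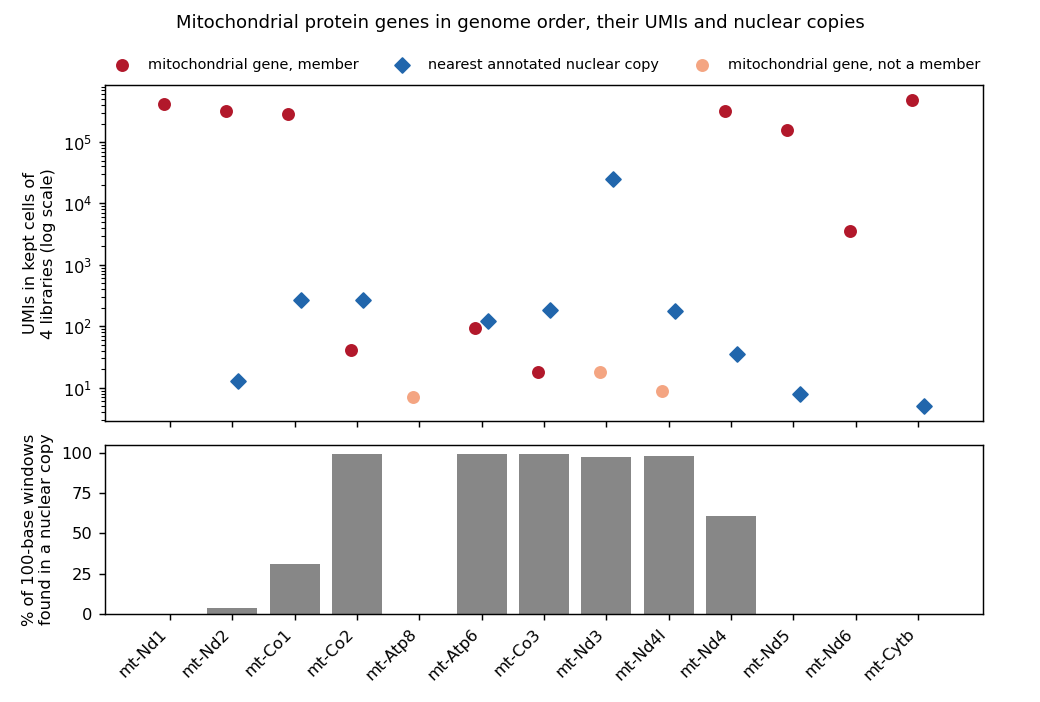
Upper panel: UMIs of the 13 mitochondrial protein genes (circles) and of the nearest annotated nuclear copy listed in the files (diamonds), summed over the kept cells of 4 libraries, log scale. For mt-Nd1 and mt-Atp8 no copy was found among annotated transcripts, and the copy of mt-Nd6 was not listed. Lower panel: share of each gene's 100-base windows found letter for letter in a copy; mt-Co2, mt-Atp6 and mt-Co3, at 99.5%, 99.5% and 99.9%, had 41, 93 and 18 UMIs.

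Levels differed between cell classes and kept much of their order across libraries. AT2-like cells held the most member UMIs in every library, 2.38% of all their UMIs in HSK, 2.56% in HSW, 1.19% in NK and 1.66% in NW. Neutrophil-like cells held the least, 0.962% in HSK, 0.961% in HSW, 0.345% in NK and 0.544% in NW. The highest class was 2.48 times the lowest in HSK, 2.66 times in HSW, 3.44 times in NK and 3.06 times in NW. B cell or plasma cell-like and T cell or NK cell-like cells stood in the upper part of the order, at 1.16% and 1.04% in NW. Monocyte-like cells, classical and non-classical, stood near its lower end in NW at 0.721% and 0.709%. Between neighbours in the order the counting intervals overlapped in 6 of 12 steps in HSK, 4 in HSW, 4 in NK and 5 in NW. In NW these were, for example, fibroblast-like and classical monocyte-like cells, at 0.725% and 0.721%.

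Some classes changed place. Vascular endothelial-like cells stood at rank 3 of 13 in HSK and in HSW, at rank 6 in NK and at rank 7 in NW. Classical monocyte-like cells stood at rank 4 in HSK, 6 in HSW, 10 in NK and 11 in NW. Club or secretory-like cells moved the other way, to rank 12 in HSK and in HSW, against rank 2 in NK and rank 3 in NW.

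**Figure D2:**
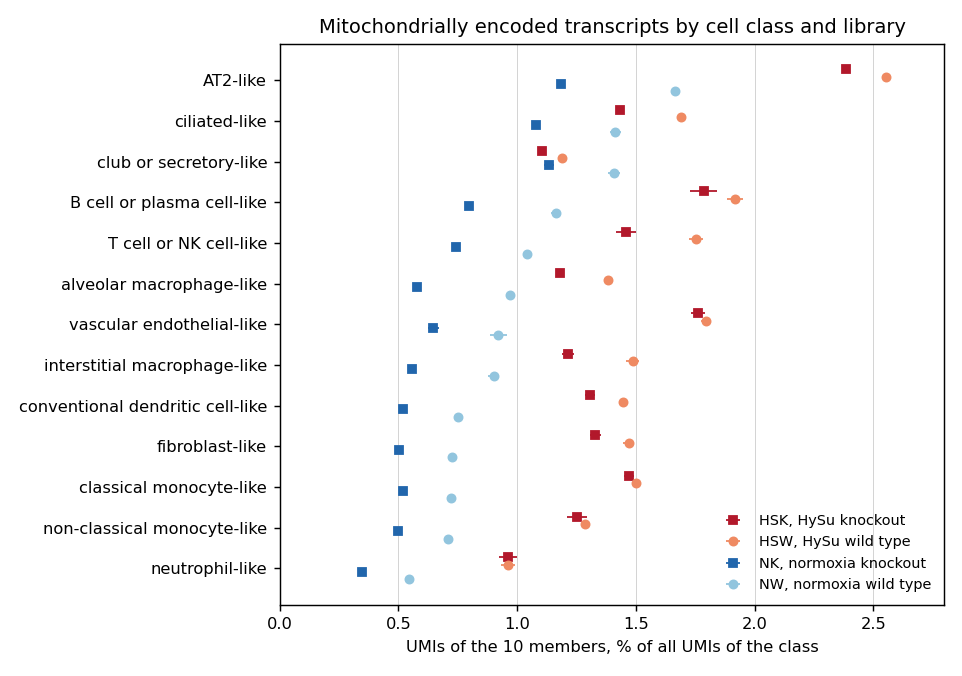
Share of all UMIs of a class held by the 10 members (x axis, %), for 13 cell classes (rows) and 4 libraries; bars are 95% exact Poisson intervals, most of them narrower than the symbol. Both HySu libraries lie right of both normoxia libraries except in the club or secretory-like class, and NK lies left of NW in every class.

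In single cells the share varied widely around these sums. Among AT2-like cells the middle 50% of cells held 1.88 to 2.83% of their UMIs in the members in HSK, 1.97 to 3.07% in HSW, 0.748 to 1.39% in NK and 1.02 to 2.04% in NW. Among vascular endothelial-like cells these ranges were 1.41 to 2.03% in HSK, 1.33 to 2.11% in HSW, 0.421 to 0.760% in NK and 0.611 to 0.984% in NW. In these endothelial-like cells the lower quartile of HSK and of HSW was above the upper quartile of NK and of NW. No kept cell of either class lacked a member UMI.

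Under HySu the heavy-strand members took a larger share of UMIs in nearly all classes of wild type lungs. In the kept cells together the members held 1.70% of UMIs in HSW against 1.00% in NW. By class, the median ratio of HSW to NW was 1.68 (log2 0.75; interval of the class at the median 0.72 to 0.79), and 12 of 13 classes were above 1. Classical monocyte-like cells had the highest ratio, at 2.08 (interval 2.06 to 2.11), followed by fibroblast-like cells at 2.03 (1.97 to 2.08) and vascular endothelial-like cells at 1.95 (1.87 to 2.03). The lowest were ciliated-like cells at 1.195 and club or secretory-like cells at 0.844 (0.825 to 0.864).

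In knockout lungs the ratio was larger. The members held 1.55% of UMIs in HSK against 0.695% in NK, and the median ratio of HSK to NK over classes was 2.24 (log2 1.16; interval 1.11 to 1.22). Ratios ran from 0.974 (0.954 to 0.996) in club or secretory-like cells and 1.33 (1.30 to 1.35) in ciliated-like cells to 2.79 (2.65 to 2.94) in neutrophil-like and 2.85 (2.79 to 2.90) in classical monocyte-like cells. The neutrophil-like class joined 2 clusters in shares that differed between libraries: the one led by Ngp, Camp and Ltf held 10 of 35 cells in HSK, 13 of 60 in HSW, 15 of 165 in NK and 15 of 215 in NW. The ratio of HSK to NK was 2.00 in that cluster and 3.27 in the other.

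In the airway classes that stood apart, 1 secretory transcript filled much of the library. Scgb1a1, the secretoglobin that marks club cells, took 76.7% of UMIs of club or secretory-like cells in HSK, 77.4% in HSW, 53.2% in NK and 59.8% in NW. It took 62.5%, 61.6%, 33.0% and 43.3% in the ciliated-like cluster, whose leading genes included Scgb1a1 and Cyp2f2 beside Ccdc153, Dynlrb2 and Tmem212. With TMM factors, which scale by the bulk of the genes, the ratio in club or secretory-like cells turned to 1.72 for HSW over NW and 2.58 for HSK over NK, and all 13 classes were above 1 in both comparisons.

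Member by member, 6 of the 7 measured genes were at least 25% higher in HSW than in NW by the median over classes, where 6.03% of 9696 genes passed the same fold. The same 6 of 7 were at least 25% higher in HSK than in NK, where 8.84% of 9028 genes did. Most genes went the other way: the median gene had a log2 ratio of -0.37 for HSW over NW and -0.54 for HSK over NK, and TMM factors moved the members up by a further median of 0.37 and 0.52. mt-Cytb, which passes electrons from ubiquinol within complex III, had 3850 CPM (UMIs scaled to a total of 1000000) in HSK against 1475 in NK, and 4397 in HSW against 2247 in NW. Its median ratio over classes was 2.92 for HSK over NK and 2.18 for HSW over NW, the highest among the members in both. mt-Nd1, in the membrane arm of complex I beside the quinone site, had 3087 CPM in HSK against 1707 in NK and 3380 in HSW against 2284 in NW. Its median ratios were 1.90 and 1.57, the lowest of the 6 for HSK over NK.

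The remaining heavy-strand members had median ratios between these for HSK over NK, while for HSW over NW mt-Nd2 (1.48) and mt-Co1 (1.49) were below mt-Nd1. mt-Nd2 and mt-Nd4, proton-pumping subunits of complex I, had 2507 and 2572 CPM in HSK against 1131 and 1027 in NK, and 2583 and 2893 in HSW against 1607 and 1520 in NW. mt-Nd5, the pumping subunit at the far end of the membrane arm, had 1298 CPM in HSK against 464 in NK and 1409 in HSW against 795 in NW. mt-Co1 had 2187 CPM in HSK against 1116 in NK and 2293 in HSW against 1546 in NW. Within each of these genes both HySu libraries were above both normoxia libraries.

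**Figure D3:**
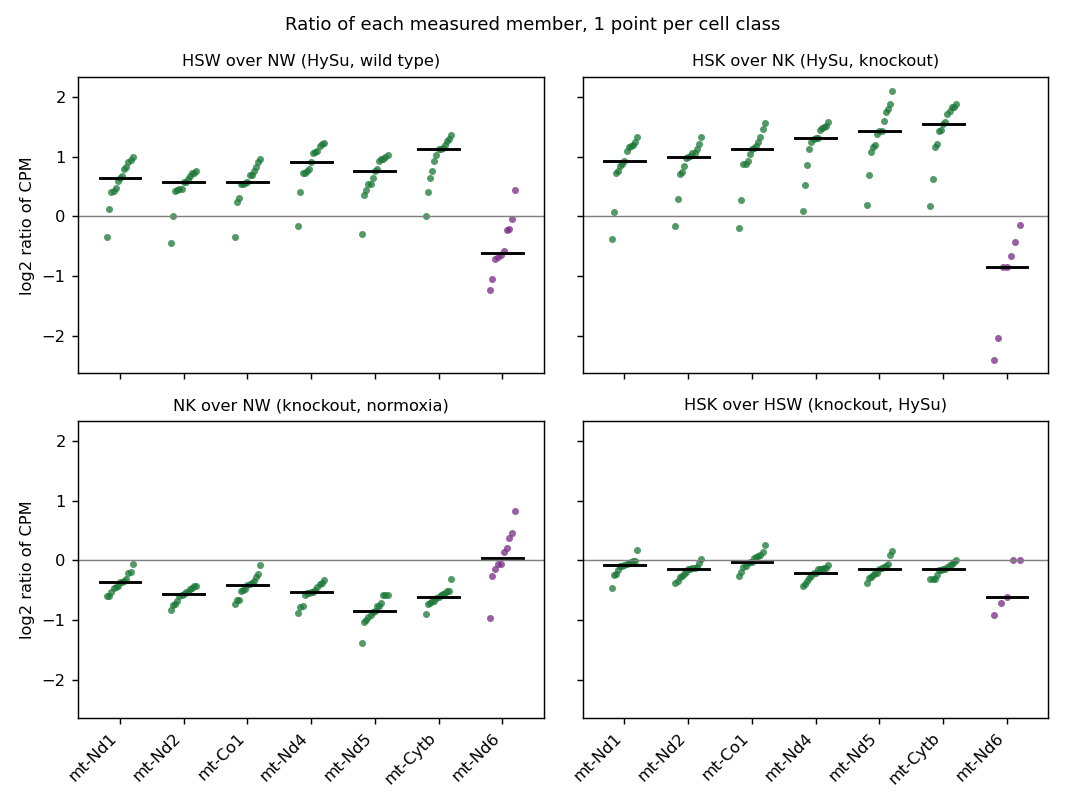
log2 ratio of CPM (y axis) for each of the 7 measured members, the heavy-strand genes in genome order and mt-Nd6 last; each point is 1 cell class with at least 50 UMIs in the pair and the bar is the median over classes. The green genes lie above 0 in both HySu comparisons, except for some of them in club or secretory-like cells, and below 0 for NK over NW, whereas mt-Nd6 (purple) lies mostly below 0 under HySu and has a median of 0.05 for NK over NW.

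In vascular endothelial-like cells, the cell type named in the study's title, the pattern was the same and its size in CPM near the upper end. With TMM factors the ratio of the members summed was 2.08 for HSW over NW and 3.07 for HSK over NK in this class. The medians over classes were then 2.19 and 3.12, so the place of this class depended on the scaling. mt-Cytb had 5006 CPM in HSK against 1476 in NK, and 5193 in HSW against 2357 in NW, which gave ratios of 3.39 (interval 3.13 to 3.68) and 2.20 (2.03 to 2.40). mt-Co1 had 2898 CPM in HSK against 985 in NK, and 2730 in HSW against 1410 in NW, with ratios of 2.94 (2.67 to 3.25) and 1.94 (1.74 to 2.16). mt-Nd5 had 1291 CPM in HSK against 428 in NK, and 1347 in HSW against 777 in NW, with ratios of 3.02 and 1.73. In each of these genes the HySu libraries were close together and the normoxia libraries apart, with NK the lowest of the 4. All 6 measured members were at least 25% higher in HSK than in NK in this class, where 24.6% of 4625 genes were. In HSW over NW 6 of 7 were, where 26.1% of 5602 genes were, the exception being mt-Nd6. Erythroid markers (haemoglobin genes and Alas2) moved with both HySu comparisons in this class: they took 0.310% of its UMIs in HSK against 0.0183% in NK, and 1.10% in HSW against 0.0408% in NW, and their part in the ratios was not tested. The class gave 805405 UMIs in HSK, 1514983 in HSW, 486433 in NK and 257488 in NW.

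In normoxia the members took a smaller share of UMIs in the knockout library than in the wild type one in every class, also with TMM factors. The members held 0.695% of UMIs in NK against 1.00% in NW, and the median ratio over classes was 0.702 (log2 -0.51; interval -0.59 to -0.43). Ratios ran from 0.593 (0.588 to 0.598) in alveolar macrophage-like cells and 0.617 (0.592 to 0.643) in interstitial macrophage-like cells to 0.804 (0.784 to 0.825) in club or secretory-like cells. The vascular endothelial-like class, at 0.702 (0.666 to 0.741), was the class at the median. Within alveolar macrophage-like cells, where 2 main clusters held different shares of NK and NW, the ratio was 0.544 in the cluster led by Ear1 and Ear2 and 0.615 in the one led by Gdf15 and Sgk1.

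Among the 7 measured members, 6 were at least 20% lower in NK than in NW by the median over classes, where 5.91% of 10003 genes were. None was at least 25% higher, where 14.0% of genes were. mt-Nd5 was the lowest, with a median ratio of 0.560 and a range of 0.386 to 0.674 over classes. mt-Nd1 was the least reduced of the 6, with a median of 0.780 and a range of 0.664 to 0.956. In vascular endothelial-like cells 5 of the 6 measured members passed the fold, where 22.4% of 3162 genes did, and mt-Nd1, at 0.807 (0.712 to 0.915), did not. Cells were shallower in NK than in NW in 13 of 13 classes, by a median ratio of 0.818 in UMIs per cell. With the same minimum of 4726 UMIs per cell in all libraries the median log2 ratio was -0.50.

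Under HySu the libraries of both genotypes were closer. The members held 1.55% of UMIs in HSK against 1.70% in HSW, and the median ratio over classes was 0.928 (log2 -0.11; interval -0.14 to -0.08). The lowest was 0.817 (0.795 to 0.839) in interstitial macrophage-like cells, and in vascular endothelial-like cells it was 0.980 (0.961 to 1.00). In the interstitial macrophage-like class, markers of alveolar macrophages took 2.12% of UMIs in HSK, 0.611% in HSW, 0.314% in NK and 0.131% in NW, against 3.12%, 3.03%, 2.45% and 2.36% in alveolar macrophage-like cells, and their part in the ratio was not tested. By the median over classes 0 of the 7 members were at least 25% higher, where 3.77% of 8613 genes were, and 1 of 7, mt-Nd6, was at least 20% lower, where 6.49% were. That median, 0.658, rests on 5 classes, of which AT2-like and alveolar macrophage-like cells were both at 1.00. It was 0.858, short of the threshold, without removal of mixed cells, and the ratio over all kept cells was 0.924 (0.827 to 1.03). In vascular endothelial-like cells 1 of 7, again mt-Nd6, was at least 20% lower, where 19.5% of 6363 genes were, on 14 UMIs in HSK and 40 in HSW with an interval of 0.331 to 1.24 for the ratio.

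The HySu ratio was thus larger in knockout than in wild type cells in all 13 classes. The difference of the log2 ratios had a median of 0.40 (interval of the class at the median 0.33 to 0.48). In CPM it ran from 0.15 (0.11 to 0.19) in ciliated-like cells to 0.66 (0.57 to 0.75) in neutrophil-like cells, the class whose 2 clusters differed in share between libraries. With TMM factors the HySu ratios of ciliated-like cells were 2.16 in wild type and 2.98 in knockout. Those of T cell or NK cell-like cells were then 2.11 and 2.62. In vascular endothelial-like cells the difference in CPM was 0.48 (0.40 to 0.56). It equals the log2 ratio of HSK over HSW (median -0.11) less that of NK over NW (median -0.51), so it shares its libraries with those comparisons and is not independent of them. By member, the median difference was 0.64 for mt-Nd5, 0.51 for mt-Cytb, 0.43 for mt-Co1, 0.39 for mt-Nd2, 0.37 for mt-Nd4 and 0.29 for mt-Nd1. For mt-Nd6 it was -0.24, with 5 of 12 classes above 0 but no class with an interval above 0. The mt-Nd6 interval lay wholly below 0 in ciliated-like cells, at -1.75 (upper end -0.69). It also did in classical monocyte-like cells, at -1.10 (upper end -0.20), and in the remaining classes it took in 0.

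The members did not move as a block: mt-Cytb and mt-Nd4 moved more than mt-Nd1, the first protein gene of the heavy-strand transcript. This can be seen without any scaling by the total, from the UMIs of one member per UMI of another. For mt-Cytb, the last of these genes, the median over classes was 1.248 UMIs per mt-Nd1 UMI in HSK, 1.32 in HSW, 0.804 in NK and 0.954 in NW. The quotient was higher in HSK than in NK and in HSW than in NW in 13 of 13 classes each, by a median of 1.47-fold and 1.28-fold. It was lower in NK than in NW in 13 of 13 classes, by a median ratio of 0.856. For mt-Nd5 per mt-Nd1 the quotient was higher in HSK than in NK in 13 of 13 classes, in HSW than in NW in 9 of 13, and lower in NK than in NW in 13 of 13. mt-Nd4 per mt-Nd1 was higher in HSK than in NK in 13 of 13 classes and in HSW than in NW in 12 of 13. No quotient was taken for mt-Nd2 and mt-Co1, which also lie after mt-Nd1. Their median CPM ratios for HSW over NW, 1.48 and 1.49, were below the 1.57 of mt-Nd1. For HSK over NK they were above it, at 2.00 and 2.19 against 1.90.

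The make-up of the member UMIs also differed between cell classes. mt-Nd2 made up 22.0% of the member UMIs of club or secretory-like cells in HSK, 22.4% in HSW, 23.8% in NK and 25.7% in NW. In classical monocyte-like cells it made up 9.77% in HSK, 10.4% in HSW, 13.3% in NK and 13.1% in NW. mt-Nd5 held 10.3% of the member UMIs in AT2-like cells in HSK, 10.5% in HSW, 9.11% in NK and 11.0% in NW, and in alveolar macrophage-like cells 5.69%, 5.87%, 4.47% and 5.38% in the same order. For mt-Nd1 the order of these classes was turned round, at 25.8% in HSK, 24.6% in HSW, 29.5% in NK and 26.3% in NW in alveolar macrophage-like cells, and 15.9%, 15.7%, 19.0% and 17.3% in AT2-like cells. In all 4 libraries AT2-like cells thus held relatively more mt-Nd5 than alveolar macrophage-like cells and relatively less mt-Nd1.

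The light-strand gene mt-Nd6, a complex I subunit, was lower in CPM under HySu, where the other measured members were higher. In the kept cells it had 16.8 CPM in HSK (621 UMIs) against 26.1 in NK (1159 UMIs), and 18.2 in HSW (673 UMIs) against 24.3 in NW (1155 UMIs). The ratio was 0.646 (0.585 to 0.713) for HSK over NK and 0.749 (0.680 to 0.825) for HSW over NW. In the kept cells together NK and NW differed by less than counting error, with a ratio of 1.07 (0.987 to 1.16). By class, 5 of 10 classes with at least 50 UMIs were above 1 for NK over NW and 5 below. The interval left out 1 in ciliated-like cells, at 1.78 (1.10 to 2.95), and in fibroblast-like cells, at 0.513 (0.306 to 0.844). mt-Nd6 was lower in HSK than in NK in 7 of 7 classes with at least 50 UMIs. It was lower in HSW than in NW in 9 of 10, the exception being classical monocyte-like cells at 1.36. The median of mt-Nd6 over classes passed the fold downward in both, as did 65.6% and 55.1% of all genes. Against all genes its lower CPM was therefore common. With TMM factors the median ratio was 0.826 for HSK over NK and 0.951 for HSW over NW, and the direction turned in 1 of 7 and 4 of 10 classes.

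Against mt-Nd5, its neighbour on the circle, mt-Nd6 can be compared with no scaling. For each mt-Nd5 UMI there were 0.0135 mt-Nd6 UMIs in HSK, 0.0152 in HSW, 0.0575 in NK and 0.0333 in NW by the median over classes. The quotient was lower in HSK than in NK and in HSW than in NW in 13 of 13 classes each, and higher in NK than in NW in 12 of 13. In vascular endothelial-like cells mt-Nd6 had 14 UMIs in HSK, 40 in HSW, 26 in NK and 16 in NW, against 1040, 2040, 208 and 200 of mt-Nd5. The genes run toward each other and overlap by 14 bases at their 3′ ends (chrM:13536-13565, plus strand, for the end of mt-Nd5 and chrM:13552-13581, minus strand, for that of mt-Nd6), as shown by the capitals.
mt-Nd5: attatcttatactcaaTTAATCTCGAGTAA
mt-Nd6: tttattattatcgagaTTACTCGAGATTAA
Whether counting used the strand is not given in the sources used here, and without it reads of the 2 genes could be mixed. How many mt-Nd6 UMIs come from antisense RNA of the heavy-strand transcript was not tested.

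**Figure D4:**
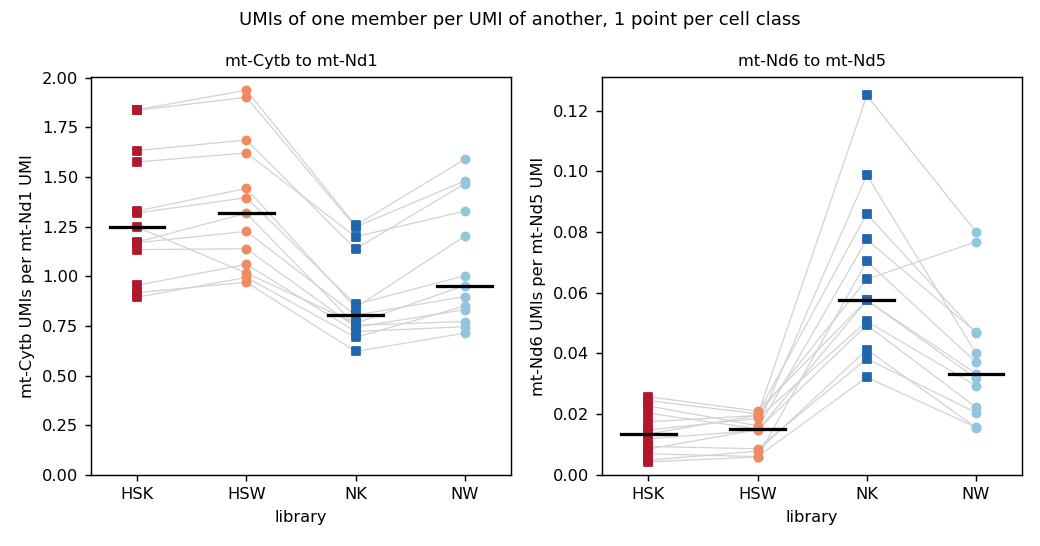
UMIs of mt-Cytb per UMI of mt-Nd1 (left) and of mt-Nd6 per UMI of mt-Nd5 (right), for 4 libraries on the x axis; each point is 1 of 13 cell classes, grey lines join a class and black bars are medians. The left medians are 1.248, 1.32, 0.804 and 0.954 and the right ones 0.0135, 0.0152, 0.0575 and 0.0333, in the order HSK, HSW, NK and NW. The right panel takes in classes with few mt-Nd6 UMIs, and no intervals are drawn.

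The mitochondrial ribosomal RNAs, read from the same strand upstream of mt-Nd1 and caught here although the libraries select poly(A) RNA, did not follow the messages. mt-Rnr2 had 164236 UMIs in HSK, 188434 in HSW, 218276 in NK and 281932 in NW in the kept cells, and its median ratio over classes was 0.811 for HSK over NK, 0.910 for HSW over NW and 0.943 for NK over NW. mt-Rnr1 had 59083, 78224, 94935 and 96841 UMIs in the same order, with median ratios of 0.717, 1.03 and 1.09. For mt-Nd1 per mt-Rnr2 the quotient was higher in HSK than in NK and in HSW than in NW in 13 of 13 classes each, by a median of 2.27-fold and 1.69-fold. With TMM factors the rRNA medians for both HySu comparisons were above 1, at 1.14 and 1.20 for mt-Rnr2 and 1.05 and 1.35 for mt-Rnr1, so the direction of all but mt-Rnr1 in HSW over NW depended on the scaling.

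Nuclear-encoded subunits of the same complexes were set beside the members. Of 78 measured nuclear genes of complexes I to V and cytochrome c, 42 were at least 25% higher in HSK than in NK and 4 lower. Of all genes 8.84% were higher and 65.6% lower, and the median log2 ratio was 0.38 for the subunits against -0.54. For HSW over NW 12 subunits were higher and 4 lower, against 6.03% and 55.1% of all genes, with a median of 0.10 against -0.37. For NK over NW 1 subunit was higher and 18 lower, against 14.0% and 5.91% of all genes, with a median of -0.17 against 0.09. For HSK over HSW 2 subunits were higher and 0 lower, against 3.77% and 6.49% of all genes, with a median of 0.08 against -0.03. These medians were of the same sign as those of the heavy-strand members for 3 of the 4 comparisons and smaller; with TMM factors the medians were 0.82, 0.47, -0.26 and 0.11 in the same order.

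By complex, the median log2 ratio for HSK over NK was 0.57 for complex V (16 genes), 0.49 for complex IV (12), 0.35 for complex I (36) and 0.28 for complex III with cytochrome c (10). Complex II, which has no mitochondrially encoded subunit, had -0.15 (4 genes), and with TMM factors 0.40. Atp5g2, a c-ring subunit of the ATP synthase, had the highest median ratio in its list for HSK over NK, at 2.59, and Atp5a1, the alpha subunit of its catalytic head, the lowest, at 0.659. Cox8a, a small subunit of cytochrome c oxidase, was at 2.21 in the same comparison and Ndufs5 of complex I at 2.03, whereas Ndufs1, the largest complex I subunit, was at 0.526 and Sdha, the flavoprotein of complex II, at 0.486. Cycs, cytochrome c itself, led its list at 1.84, with Uqcrc2, a core protein of complex III, at the bottom at 0.841.

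For HSW over NW the leading genes were Atp5j of complex V at 1.70, Ndufs8 of complex I at 1.53, Cox8a at 1.43, Uqcrfs1, the Rieske protein of complex III, at 1.23 and Sdhb at 1.20. The lowest were Sdha at 0.601, Ndufs1 at 0.652, Atp5a1 at 0.735, Uqcrc2 at 0.915 and Cox7c at 0.943. For NK over NW Ndufs5 (0.689), Atp5k (0.728), Cox7b (0.745) and Uqcr10 (0.790) were lowest, and Sdha was highest at 1.34. For HSK over HSW Atp5g2 was highest at 1.38 and Ndufs7 lowest at 0.890.

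Genes that copy mitochondrial DNA and make and process its RNA had medians below 0 under HySu in CPM and near 0 with TMM factors, and their counts were near those of all genes, of which 65.6% were at least 20% lower for HSK over NK and 55.1% for HSW over NW. Of 12 measured genes of mitochondrial transcription and DNA replication, 0 were at least 25% higher and 6 lower in HSW than in NW, with a median log2 ratio of -0.31 against -0.37 for all genes, and of 9 measured for HSK over NK 1 was higher and 5 lower, with a median of -0.36 against -0.54. Ssbp1, which coats single-stranded mitochondrial DNA, was highest in both, at 1.52 for HSK over NK and 1.13 for HSW over NW. Polg, the mitochondrial DNA polymerase, was lowest for HSK over NK at 0.480, and Polrmt, the RNA polymerase that reads the circle, lowest for HSW over NW at 0.543. For NK over NW Tfb1m was highest at 1.33 and Ssbp1 lowest at 0.744, and for HSK over HSW Mterf4 was highest at 1.34 and Rnaseh1 lowest at 0.870.

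Genes of mitochondrial RNA processing and stability had medians of -0.43 for HSK over NK (12 measured, 1 higher and 7 lower) and -0.33 for HSW over NW (15 measured, 0 higher and 8 lower), against -0.54 and -0.37 for all genes. Slirp was highest for HSK over NK at 1.62, and its partner Lrpprc, which stabilises mitochondrial messages, lowest at 0.433. For NK over NW the same pair stood at the ends in turned order, Lrpprc at 1.31 and Slirp at 0.736. Hsd17b10 (1.12) and Grsf1 (0.562) were the ends for HSW over NW, and Elac2 (1.03) and Supv3l1 (0.668) for HSK over HSW. With TMM factors the median log2 ratios were near 0, at 0.018 and 0.025 for the transcription list and -0.0070 and 0.011 for the processing list, for HSK over NK and HSW over NW in turn. Of 17 genes used as signs of mitochondrial mass, such as Vdac1 and Cs, 2 were higher and 7 lower in HSK than in NK. Of all genes 8.84% were higher and 65.6% lower in that comparison. For HSW over NW 1 of the 17 was higher and 7 lower, against 6.03% and 55.1% of all genes. The median log2 ratios of the mass list, -0.14 and -0.23, were above those of all genes, -0.54 and -0.37, and with TMM factors the list medians were 0.26 and 0.12.

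**Figure D5:**
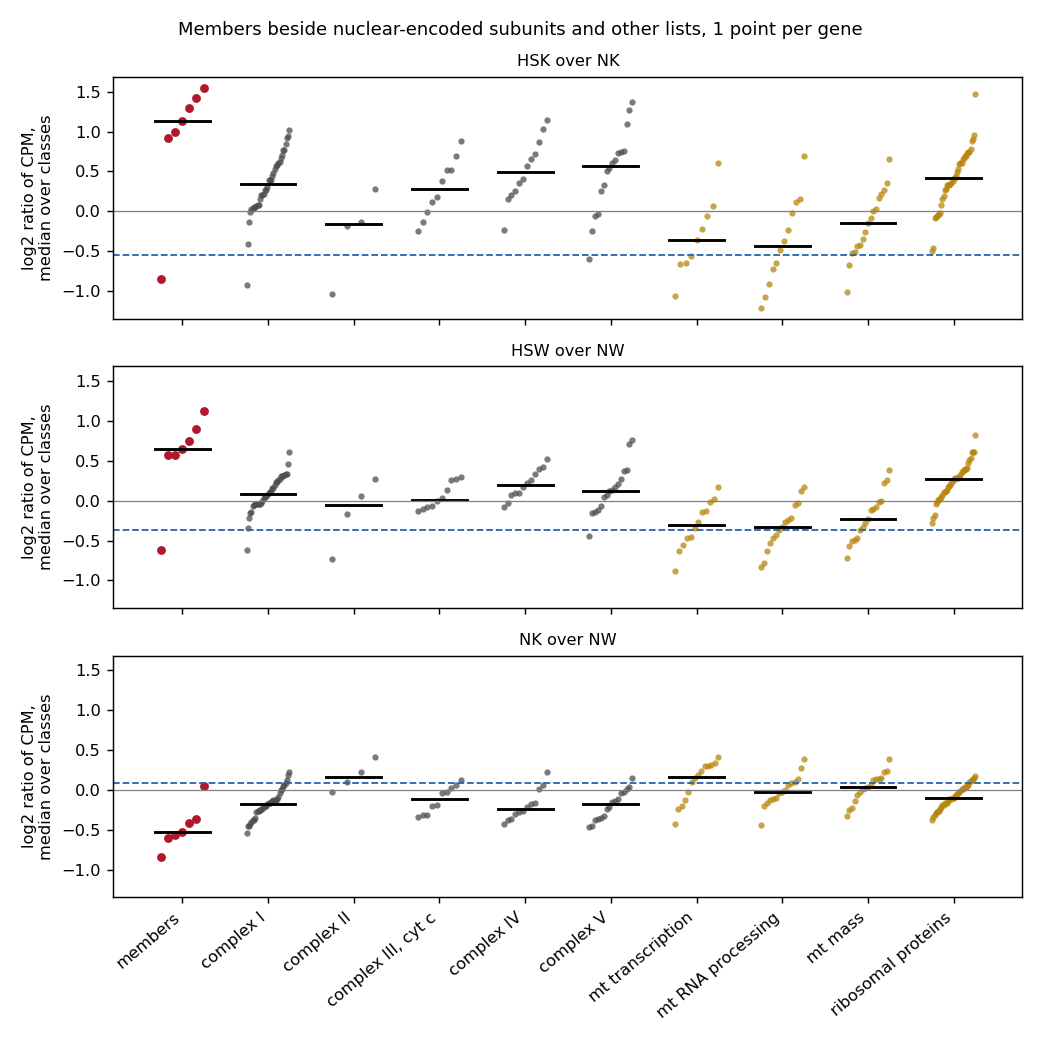
Median log2 ratio of CPM over classes (y axis) for each gene of each list (x axis; the members in red, nuclear-encoded subunits in grey, other lists in gold), for HSK over NK, HSW over NW and NK over NW; black bars are list medians and the dashed line is the median of all genes. The members other than mt-Nd6 lie above the medians of all other lists in the upper panels and below them in the lowest, and the list medians of the nuclear subunits of complexes I, III, IV and V lie between that of the members and that of all genes, with single genes on either side.

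Further lists were set beside the members as measures of the state of the cells and their RNA. Of 39 measured cytosolic ribosomal protein genes, 26 were at least 25% higher and 2 lower in HSK than in NK (median log2 ratio 0.41), and 13 were higher and 0 lower in HSW than in NW (0.28). Of all genes, 8.84% were higher and 65.6% lower for HSK over NK (median -0.54), and 6.03% higher and 55.1% lower for HSW over NW (median -0.37). For NK over NW 0 of these ribosomal protein genes were higher and 2 lower (-0.10), against 14.0% and 5.91% of all genes. Genes of the dissociation and heat shock response had medians of -0.67 for HSK over NK and -0.39 for HSW over NW, with 11 and 10 of 18 lower, which is near all genes, and with TMM factors the medians were -0.16 and -0.05. Nuclear-retained RNAs, of which Malat1 is best known, had medians of -0.89 (2 measured) and -0.33 (3 measured), that for HSW over NW turning to 0.08 with TMM factors. Erythroid markers, higher under HySu in vascular endothelial-like cells as given above, took a median over classes of 0.000633% of UMIs in HSK, 0.00171% in HSW, 0.00106% in NK and 0.00134% in NW. The part of RNA quality, of the handling of each pool and of sequencing in the differences of the members was not tested, and with 1 library per group it cannot be told apart from treatment and genotype.

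Across the 52 sums of class and library, the gene outside the mitochondrial genome whose level was most like that of the members summed was Gm28438, the copy of mt-Nd3, with a Pearson correlation of log2(CPM + 1) of 0.95. It had 8523 UMIs in HSK, 7979 in HSW, 2609 in NK and 5853 in NW in the kept cells. Of the windows of mt-Nd3, 97.6% were shared with a copy, and mt-Nd3 itself had 18 UMIs against 24964 for Gm28438. Whether the UMIs of Gm28438 came from mt-Nd3 messages was not tested, so its likeness cannot be taken as that of a nuclear gene. The next genes among the 3034 ranked were Suclg1, a subunit of succinyl-CoA ligase in the citric acid cycle, at 0.81, Cyp1b1, a cytochrome P450, at 0.66, Naxe, which repairs damaged NADH and NADPH hydrates, at 0.63, and Atp5j at 0.61. Among the members themselves mt-Cytb had 0.99, mt-Nd4 0.98, mt-Nd5 0.95, mt-Nd2 0.87, mt-Nd1 and mt-Co1 0.86, and mt-Nd6 -0.04. Each member is part of the sum it was set against, so its value is partly fixed by its own share of that sum. The points share 4 libraries, so these values describe likeness only.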

How the data were processed

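Mouse lung single cells were analysed in 4 libraries, 1 per group. The authors deposited raw UMI counts per gene and cell; the tools were Scanpy, featureCounts 2.0.1, STAR 2.6.1a and cutadapt 1.17, and the builds GRCm38 and mm10, per the submitters' processing notes. Settings, strand and treatment of multiply mapped reads are not given in the sources used here.

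Cells with at least 200 genes were clustered with scanpy 1.11.5 and leidenalg 0.10.2 (2000 variable genes without mitochondrial genes, 40 components, 20 neighbours, resolution 1, seed 1). Cells with more than 20% mitochondrial UMIs were left out after clustering. Scrublet called 3 to 30 cells per library (expected 6%), too few to have worked. A cell was therefore removed as mixed when markers of a second lineage passed 0.15 of their median level in that lineage with at least 3 UMIs, which took 11.1% of cells in HSK, 19.5% in HSW, 30.6% in NK and 24.0% in NW. Names needed at least 3 detected markers. A difference from the study may come from these rebuilt names.

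UMIs were summed per class and library and scaled to CPM, UMI counts scaled to a total of 1000000. Levels have exact Poisson 95% intervals, ratios exact conditional binomial ones and differences of log2 ratios Wald ones. No test between groups was made. A gene was measured in a class with at least 50 UMIs in the pair, and a median over classes needed at least 3. The thresholds of 25% higher and 20% lower, the gene lists, markers and members were chosen with earlier results of these data known. Named genes were the members, the 5 most correlated genes with a mean of at least 50 CPM, and the highest and lowest gene of each subunit, transcription and processing list. Ratios and intervals were tested on simulated Poisson counts drawn from the NW sums with known changes. That simulation holds counting error only, so it cannot test spread between mice, pools or libraries. BLAST 2.17.0 and edgeR 4.0.16 (TMM factors) were used; alternatives are given in the closing section.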

Additional observations from a re-analysis of the deposited data

How the results depend on the processing

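Direction was kept in all 5 comparisons of the members summed under every alternative run. Scaling moved them most. With TMM factors the median log2 ratio was 1.13 for HSW over NW, 1.64 for HSK over NK, -0.61 for NK over NW and -0.063 for HSK over HSW, and the difference of HySu ratios, knockout minus wild type, was 0.52. Without removal of mixed cells the median log2 ratio was 0.84 for HSW over NW and 1.22 for HSK over NK, and with Scrublet calls alone removed 0.84 and 1.22. Without mt-Cytb, the member with the most UMIs, these were 0.70 and 1.04. On the same log2 scale, a minimum of 4726 UMIs in all libraries gave 1.26 for HSK over NK. Clustering at resolution 2 gave -0.14 for HSK over HSW, and leaving out cells with a barcode held by another library, an alternative chosen after seeing the data, gave -0.14. The medians under the other alternatives stayed within the counting interval of the class at the median. Of 168 median ratios of single members under 6 alternatives, 0 of those past the threshold (25% higher or 20% lower) changed sign and 14 moved by more than that threshold; the counts of ratios past it stayed within 1.5 times the main count.

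No paired analysis was possible because each group is 1 library. Depth limits mt-Nd6 by class, mt-Co2, mt-Co3 and mt-Atp6 everywhere, and the endothelial-like class of NW with 39 cells.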
